A study of Mus musculus with 32 samples.

Results

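Recovery from 4 mM hydrazine was followed in FE1 cells, a line established from the lung of a transgenic mouse and labelled as lung epithelium, as a difference of effects. The effect at 4 h was the RNA level in cells collected at the end of a 4 h exposure to 4 mM (5 libraries) minus that in cells given 0 mM, called vehicle here, for the same 4 h (3 libraries). The effect after washout was the level in cells that had the same 4 h exposure and then 20 h without the compound (3 libraries) minus that in vehicle cells of the same schedule (3 libraries). The difference is the washout effect minus the 4 h effect. These groups, chosen by the labels for dose and time, held 14 of the series' 32 libraries. The other libraries were of the same line at 1, 6 and 10 mM; they entered the estimate of spread, and those of 6 and 10 mM were also set beside 4 mM. The labels name no other agent and no mutation, and everything rests on 1 cell line. Whether replicates came from separate cultures is not stated, and p-values therefore speak only to how much these samples varied, and that variation may be technical.

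Hydrazine reacts with carbonyl groups, among them that of pyridoxal phosphate, the active form of vitamin B6, and it can give rise to alkylated DNA bases. Several control systems are known to answer such damage within hours. The transcription factor p53 raises genes that hold the cell cycle and genes that end its own activity. ATF4 raises genes for amino acid supply and for glutathione turnover when translation is held back. Genes for mitosis are shut off as long as cells do not enter division, through promoter elements that bind the DREAM and B-MYB complexes. Whether a gene then returns once the agent is removed depends on its own mRNA decay and on whether the signal persists.

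Totals of the 14 libraries ran from 10677839 to 17086721 expected counts, and 13258 genes were tested. Levels are given in CPM, counts scaled to library size, and effects as log2 fold changes with their standard error (SE). A gene is called where the adjusted p of edgeR's quasi-likelihood test was below 0.05, after Benjamini-Hochberg correction across every gene tested. The label as lung epithelium went against the markers. Of 16 lung epithelium markers, 15 had a mean under 1 CPM over the 14 libraries and 7 were at 0 in all 14. The sum over the list was 1.11 to 4.1 CPM. All 10 mesenchyme markers, such as vimentin and type I collagen, were measured, with sums of 20900 to 22400 CPM in the 4 h vehicle libraries and 23200 to 25500 CPM at 4 mM. After washout those sums were 21700 to 23900 CPM in the vehicle and 24300 to 24800 CPM after 4 mM. The mesenchyme sum was thus higher in the exposed libraries at both times, and its part in the results was not tested. The cells are called FE1 cells below. Sums over 6 endothelial and 8 leukocyte markers did not exceed 0.56 and 2.56 CPM.

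At the end of the exposure 5113 genes, 38.6% of those tested, were called, 2585 higher and 2528 lower. After washout 461 genes, or 3.48%, were called, 306 higher and 155 lower, and 2166 had an unadjusted p under 0.05. The difference of effects was called for 2289 genes (17.3%), 1252 of them upwards (9.44%) and 1037 downwards (7.82%). Of the 5113 genes called at 4 h, 293 (5.73%) were also called after washout from other libraries, 271 with the same sign and 22 with the opposite sign.

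The calls were used to sort genes. A recovered gene was called at 4 h, had a called difference against the sign of its 4 h effect and was not called after washout. A retained gene was called after washout with the sign it had at 4 h, and an overshooting gene with the opposite sign. Genes called at 4 h that met none of these were left as unresolved, and genes not called at 4 h whose washout effect and difference were both called are termed late. By this sort 2001 genes (15.1% of those tested) recovered, 271 (2.04%) were retained, 22 (0.166%) overshot, 2819 (21.3%; 1503 or 11.3% higher and 1316 or 9.93% lower at 4 h) were unresolved and 78 (0.588%) were late. The sort describes the genes and is no further test, and a washout effect that missed the threshold does not show that a gene was back at its vehicle level.

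**Figure D1:**
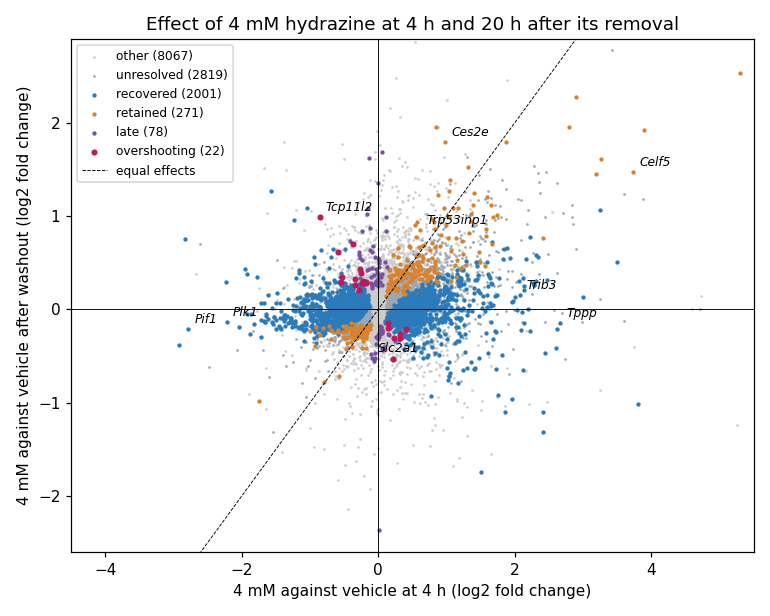
Each point is 1 of 13258 tested genes, with the effect of 4 mM at 4 h (log2) on the x axis and the effect after washout (log2) on the y axis, coloured by class. The 2001 recovered genes, by definition not called after washout, scatter around the horizontal line at 0, and 31 genes fall outside the axes. Of the 271 retained genes, 209 had no called departure from the diagonal of equal effects, 58 were called towards 0 and 4 away from 0.

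Large decreases were more often sorted as recovered than large increases. Of all 136 genes called at least 2-fold lower at 4 h, 109 (80.1%) recovered, 2 were retained and 25 were unresolved. Of the 467 called at least 2-fold higher, 180 (38.5%) recovered, 42 were retained and 245 were unresolved, so more of them were unresolved than recovered. Among genes called lower at 4 h by at least 2-fold and measured at 5 CPM or more in a group, 90 of 96 recovered, 1 was retained and 5 were unresolved, and the median gene kept 6.37% of its 4 h log2 effect (quartiles -2.39% and 12.7%). Among those called higher by the same rule, 102 of 143 recovered, 26 were retained and 15 were unresolved, and the median gene kept 21.7% (quartiles 7.41% and 34.6%). Under 1.5-fold the order of the medians was the other one, with 21.8% kept by lower and 18.4% by higher genes. The 4 h effects chose these genes, so the shares are a description and carry no test. After washout only 37 genes were both called and at least 2-fold higher (0.279% of those tested) and 1 was at least 2-fold lower (0.00754%), against 467 (3.52%) and 136 (1.03%) at 4 h. The difference itself was called at 2-fold or more for 136 genes upwards (1.03%) and 180 downwards (1.36%).

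A difference of effects can come from the exposed cells, from the vehicle cells or from both, since vehicle cells also changed over the 20 h: 913 genes (6.89%) were called between the vehicle groups. Of the 892 recovered genes that had been higher at 4 h, 804 also fell in the exposed cells themselves between 4 h and washout (background 20.4%), and for 116 the vehicle's change was the larger part. Of the 1109 that had been lower, 1031 rose in the exposed cells (background 20.4%) and for 109 the vehicle's part was the larger. These values share libraries with the difference and are given beside it only. For 308 of the 892 and 531 of the 1109, the washout effect, with 2 SE added to its size, still lay nearer to 0 than to the 4 h effect.

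Mitotic genes had fallen at 4 h and came back nearly as a block. Of 47 measured genes of the mitosis list, 46 were lower at 4 h (background 19.1%), 42 had a called upward difference (background 9.44%) and 40 recovered (background for genes lower at 4 h 8.36%). The list's median effect was -0.91 at 4 h and -0.14 after washout, with a median difference of 0.80, against -0.02 over all tested genes. The vehicle carried part of this difference, as 29 of the 47 genes fell in it over time (background 3.55%). The list's median change over time was -0.27 in the vehicle and 0.54 in the exposed cells. In bulk RNA, fewer cells in mitosis and less mRNA per cell cannot be told apart. The promoters of 3 mitotic genes and of a pair of ATF4 targets among the strongest movers of their lists are shown with the elements known for their regulation. They come from RefSeq on GRCm38.p6, 250 bases before to 50 after the annotated gene start, 5′ to 3′ on the gene's strand. Capitals mark TTTGAA, the core of the cell cycle genes homology region, and CCAAT, the element bound by NF-Y, in Plk1 (chr7:122159185-122159484, plus strand), Aurka (chr2:172370521-172370820, minus strand) and Cenpf (chr1:189688037-189688336, minus strand). In Chac1 (chr2:119350992-119351291, plus strand) and Trib3 (chr2:152344011-152344310, minus strand) they mark TGATGNAA, the core of the composite element that ATF4 binds, read on either strand.
Plk1: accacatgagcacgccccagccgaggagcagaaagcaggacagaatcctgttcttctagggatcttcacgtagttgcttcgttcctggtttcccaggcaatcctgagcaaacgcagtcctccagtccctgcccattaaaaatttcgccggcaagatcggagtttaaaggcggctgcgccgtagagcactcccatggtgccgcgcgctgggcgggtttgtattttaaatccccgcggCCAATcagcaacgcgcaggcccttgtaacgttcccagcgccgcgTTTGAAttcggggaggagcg
Aurka: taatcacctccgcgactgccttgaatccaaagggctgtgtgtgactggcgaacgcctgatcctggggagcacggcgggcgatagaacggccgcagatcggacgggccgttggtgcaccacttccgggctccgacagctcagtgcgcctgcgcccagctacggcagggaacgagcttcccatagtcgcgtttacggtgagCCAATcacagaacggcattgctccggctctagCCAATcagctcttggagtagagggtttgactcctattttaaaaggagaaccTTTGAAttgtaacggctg
Cenpf: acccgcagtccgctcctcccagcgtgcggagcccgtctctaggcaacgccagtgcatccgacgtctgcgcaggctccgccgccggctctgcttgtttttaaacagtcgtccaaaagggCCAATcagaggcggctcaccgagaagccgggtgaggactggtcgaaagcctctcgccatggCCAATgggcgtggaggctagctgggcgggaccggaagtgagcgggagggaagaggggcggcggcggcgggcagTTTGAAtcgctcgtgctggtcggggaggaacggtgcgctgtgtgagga
Chac1: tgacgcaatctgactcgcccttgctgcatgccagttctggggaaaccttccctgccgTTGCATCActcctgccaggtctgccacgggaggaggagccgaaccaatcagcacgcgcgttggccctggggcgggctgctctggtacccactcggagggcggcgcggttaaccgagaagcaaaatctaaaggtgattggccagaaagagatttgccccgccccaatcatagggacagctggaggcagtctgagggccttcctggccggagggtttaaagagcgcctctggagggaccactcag
Trib3: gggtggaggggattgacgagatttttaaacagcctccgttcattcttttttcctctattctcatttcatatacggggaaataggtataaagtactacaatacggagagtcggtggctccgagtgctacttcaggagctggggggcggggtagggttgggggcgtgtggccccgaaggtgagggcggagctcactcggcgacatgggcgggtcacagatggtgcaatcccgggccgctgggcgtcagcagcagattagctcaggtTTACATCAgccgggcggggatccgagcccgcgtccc
A promoter was listed for 9616 of the 13258 tested genes, and the first listed was searched on both strands. TTTGAA was present in 11.9% of all these promoters, in 165 of 869 (19%) of recovered genes that had been lower at 4 h, in 8.44% of those that had been higher and in 26 of 38 (68.4%) of the mitosis list. CCAAT was present in 39.6% of all and in 28 of 38 (73.7%) of the mitosis list. TGATGNAA was present in 2.09% of all and in 16 of 41 (39%) of the ATF4 list. The first of the recovered shares is partly the mitosis list itself, and a match of letters is a description, not a bound site.

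Plk1, the kinase that drives mitotic entry and spindle assembly, stood at 149, 172.5 and 158.2 CPM in the 4 h vehicle libraries and at 34.2, 33.6, 36.5, 32.3 and 35.2 CPM at 4 mM. After washout it stood at 130.3, 131.3 and 140.5 CPM in the vehicle and 125.7, 120.4 and 119.3 CPM in the exposed cells. The 4 h groups were far apart, and the washout groups lay close together with each exposed library still just below each vehicle library. Its effect went from -2.22 ± 0.06 (SE) to -0.14 ± 0.07, a difference of 2.08 ± 0.09 (edgeR adjusted p = 4.59e-16). Cenpf, a protein of the outer kinetochore, stood at 193.5, 246.4 and 225.1 CPM in the 4 h vehicle and 51.8 to 63.4 CPM in the 5 exposed libraries. After washout its exposed libraries, at 162.7, 160.4 and 168.3 CPM, overlapped those of the vehicle at 171.4, 166.8 and 169.1 CPM, and the difference was 1.88 ± 0.16 (edgeR adjusted p = 2.96e-09). Aurka, the spindle pole kinase, and Kif23, a kinesin of cytokinesis, followed with differences of 1.67 ± 0.10 and 1.56 ± 0.08. The mitotic list was not wholly level with its vehicle: in 30 of its 47 genes every exposed washout library lay below every vehicle library (background 15.8%), and Bub1, a spindle checkpoint kinase, and Ccna2, cyclin A2, were retained at -0.22 ± 0.05 and -0.19 ± 0.06. Without library c of the washout vehicle, or without b of the exposed washout libraries, neither was called after washout.

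Pif1, a DNA helicase, had the largest upward difference by the rule for named genes outside the lists. It went from 39, 42.7 and 39 CPM in the 4 h vehicle to 5.12 to 6.31 CPM at 4 mM. After washout it was at 25.3, 26.2 and 27.4 CPM against 29.3, 29.1 and 33.1 CPM, so that most but not all of the gap had closed. The difference was 2.57 ± 0.12 (edgeR adjusted p = 4.59e-16). Sapcd2 and Depdc1b, both linked to dividing cells, and the exchange factor gene Arhgef39 recovered by 1.82 ± 0.18, 1.78 ± 0.20 and 1.63 ± 0.22. The histone genes Hist3h2a and Hist1h1c recovered by 2.38 ± 0.28 and 1.77 ± 0.22. For Hist1h1c the vehicle's fall was the larger part, with a log2 change over time of -1.43 beside 0.35 in the exposed cells. The latter was not called (edgeR adjusted p = 0.0699). The Hist1h1c vehicle mean went from 14.3 ± 1.01 (SD, n = 3) to 5.3 ± 0.813 CPM. Exposed cells went from 4.59 ± 1.08 (SD, n = 5) to 5.89 ± 0.295 CPM. For Hist3h2a the change was -1.01 in the vehicle and 1.37 in the exposed cells, both called. Libraries were poly-A selected and most histone mRNA lacks a poly-A tail, so histone levels reflect what the selection captured. Etv5, an ETS factor that follows growth factor signalling, had stood at 35.1 ± 7.61 CPM in the vehicle and 11.2 ± 2.5 CPM at 4 mM, and was at 47.1 ± 1.63 and 49.3 ± 1.5 CPM after washout. The chromatin reader Jade2 moved in the same way, with a difference of 1.6 ± 0.18.

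**Figure D2:**
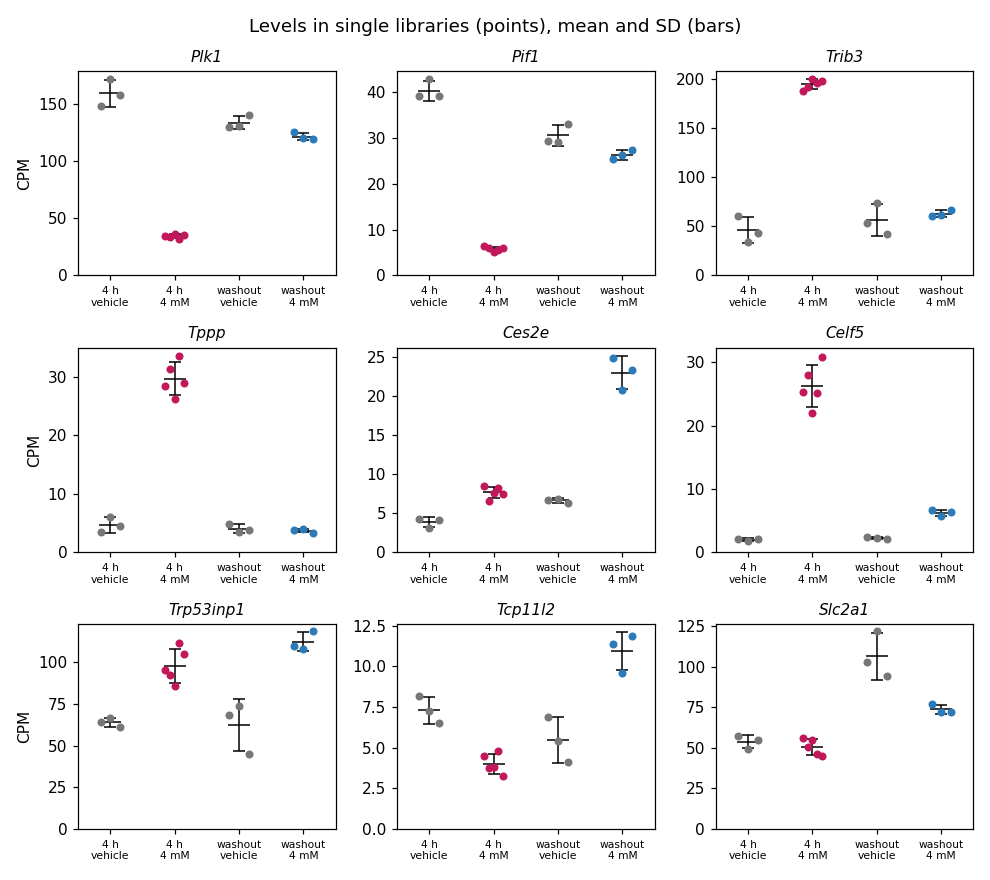
Level in CPM (linear axes from 0) of 9 genes in each of the 14 libraries, by group, with points for libraries and bars for the group mean and SD. Plk1 and Pif1 dip and Trib3, Tppp and Celf5 peak at 4 mM at 4 h, while Ces2e, Trp53inp1 and Tcp11l2 stand above and Slc2a1 stands below their vehicle after washout.

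The ATF4 and amino acid response showed the reverse course. Of its 52 measured genes 47 were higher at 4 h (background 19.5%) and 32 had a called downward difference (background 7.82%). Of the 52, 31 recovered and 15 were unresolved (backgrounds for genes higher at 4 h 6.73% and 11.3%). The median effect was 0.47 at 4 h and 0.05 after washout. In the vehicle 11 genes rose and 2 fell over time (backgrounds 3.33% and 3.55%). The list's median change over time was 0.13 in the vehicle and -0.28 in the exposed cells. Trib3, a pseudokinase that restrains AKT and ATF4, was at 60.8, 34.3 and 43.2 CPM in the 4 h vehicle and 187.8 to 200.2 CPM in the exposed libraries. After washout the vehicle was at 53.9, 73.6 and 42.1 CPM and the exposed cells at 60.3, 61.2 and 66.9 CPM. The exposed libraries lay inside the range of their vehicle, whose libraries differed more among themselves than the exposed ones did. The difference was -1.92 ± 0.22 (edgeR adjusted p = 7.93e-07). Chac1, which degrades glutathione, was at 24.2, 17.3 and 23.8 CPM in the 4 h vehicle, 80 to 91.9 CPM at 4 mM, and 25.6, 25.1 and 23 CPM after washout of 4 mM beside a vehicle at 19.9, 29.7 and 17.6 CPM. Its difference was -1.87 ± 0.19 (edgeR adjusted p = 2.92e-08), and that of Ddit3, which encodes the stress factor CHOP, was -1.58 ± 0.20. Fgf21, a secreted hormone induced by amino acid shortage, had a difference of -2.36 ± 0.94 at levels under 3 CPM that did not pass the test (edgeR adjusted p = 0.121) and is unresolved. Pck2, the mitochondrial form of phosphoenolpyruvate carboxykinase, was the 1 retained gene of the list, at 0.77 ± 0.08 and then 0.36 ± 0.09; its washout call was lost without a or c of the washout vehicle or any 1 of the exposed washout libraries. Without library b of the washout vehicle, which was the highest of its group for Trib3 and Chac1, 8 genes of the list were called higher after washout and 20 recovered.

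About as many cholesterol genes recovered as stayed unresolved. In that list 20 of 27 genes were higher at 4 h (background 19.5%), 11 recovered (background 15.1%) and 10 were unresolved (background 21.3%). None was called after washout by edgeR or by the DESeq2 Wald test, with 3 at an unadjusted p under 0.05. Mvd and Dhcr7, enzymes of the early and the last part of the pathway, had differences of -0.74 ± 0.13 and -0.73 ± 0.11. Mvd showed how the vehicle moved too, from 56.1 CPM at 4 h to 39.5 CPM, while exposed cells went from 109.4 to 46 CPM, and 10 of the 27 genes fell in the vehicle over time (background 3.55%). Among 17 genes of fatty acid synthesis 8 were higher at 4 h (background 19.5%) and 5 recovered (background 15.1%). Acss2, which makes acetyl-CoA from acetate, led them (-1.36 ± 0.17), then Acsl3 (-0.68 ± 0.13) and Acly (-0.42 ± 0.08). None of the 17 was called after washout by edgeR (3 at an unadjusted p under 0.05), and 1 was retained by the DESeq2 Wald test. Without library b of the washout vehicle 7 cholesterol genes recovered and 3 fatty acid genes were retained.

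Early regulators recovered from both directions. Of 28 immediate early genes 5 were higher and 13 lower at 4 h (backgrounds 19.5% and 19.1%), and 12 recovered (background 15.1%), so the share of higher genes was near that of all genes. Dusp1, a phosphatase that ends MAP kinase signals, had a 4 h effect of 1.65 ± 0.11 and a washout effect of 0.03 ± 0.13. Egr1, a growth factor induced transcription factor, was at 9.53, 3.49 and 4.83 CPM in the 4 h vehicle, 0.608 to 1.42 CPM at 4 mM, and 14.2, 13.6 and 12.2 CPM after washout of 4 mM beside 14.2, 8.7 and 9.66 CPM in the vehicle. The AP-1 subunit gene Fosl1 recovered by 1.42 ± 0.28. Of 17 clock genes 8 were higher and 3 lower at 4 h (backgrounds 19.5% and 19.1%), the latter a share near that of all genes. In this list 8 recovered (background 15.1%), among them the clock regulators Rora (-1.57 ± 0.38), Ciart (-1.18 ± 0.25), Per3 (-0.81 ± 0.19) and Per1 (-0.71 ± 0.13). In the NF-kB list 10 of 20 were higher and 3 lower at 4 h (backgrounds 19.5% and 19.1%), the latter a share not above that of all genes. Of the 20, 6 recovered (background 15.1%), including Nfkbia, the inhibitor of NF-kB (-0.72 ± 0.13), and, from below, the adhesion molecule gene Vcam1 (0.86 ± 0.11). Tnfaip2 of the same list was retained at 0.90 ± 0.22, a call lost without a or c of the washout vehicle or a of the exposed washout libraries. With a replicate block no clock gene was lower at 4 h. Among recovered genes outside the lists and at 5 CPM or more the largest downward differences were in Tppp, a tubulin binding protein (-2.81 ± 0.25), Dact1 and Apc2, both tied to Wnt signalling (-2.19 ± 0.33 and -2.01 ± 0.37), and Ccn5, a matrix protein (-2.0 ± 0.36). Tppp went from 3.44, 6.04 and 4.55 CPM in the vehicle to 26.3 to 33.6 CPM, and after washout its exposed libraries at 3.77, 3.93 and 3.37 CPM overlapped the vehicle at 4.85, 3.43 and 3.85 CPM. For Apc2 the vehicle's rise of 1.05 over time was a larger part of the difference than the exposed cells' change of -0.96. Gadd45a, a growth arrest gene, Ppm1e, Pitpnc1 and Angptl6 completed the set with differences between -1.62 and -1.89.

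The p53 targets split between recovery and retention. Of 41 measured genes 21 were higher and 5 lower at 4 h (backgrounds 19.5% and 19.1%), the latter a share not above that of all genes. Of the 41, 14 recovered (background 15.1%), 5 were retained (background 2.04%) and 2 were late (background 0.588%). Unresolved were 7 (background 21.3%), also a share not above that of all genes. Mdm2, the ubiquitin ligase that removes p53, and Cdkn1a, the cell cycle inhibitor p21, were chosen here after their values were seen. Mdm2 was at 270.1, 243.5 and 265.2 CPM in the 4 h vehicle, 348.7 to 401.4 CPM at 4 mM, and 291.1, 283.3 and 276.9 CPM after washout beside a vehicle at 264.3, 266.3 and 252.9 CPM. Every exposed washout library was thus still above every vehicle library, as in 17 of the 41 genes (background 14.2%), but the washout effect of 0.12 ± 0.06 missed the threshold, and the difference was -0.37 ± 0.07 (edgeR adjusted p = 0.00075). Cdkn1a showed the same order, with effects of 0.48 ± 0.05 and 0.08 ± 0.05. By rule, Pmaip1, which encodes the cell death factor NOXA, recovered by -1.28 ± 0.37 and Ano3, an ion channel family gene, by -0.97 ± 0.20; without library c of the washout vehicle Pmaip1 was not called. Gdf15 recovered at levels of about 1 CPM, and 9 of 22 alternatives lost its call.

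The retained p53 targets were Fas, the death receptor, Dcxr, a sugar and carbonyl reductase, Trp53inp1, a p53 cofactor, Sesn1, a brake on mTORC1, and Mgmt, the enzyme that removes methyl groups from guanine. Dcxr kept the larger part of its effect, at 1.23 ± 0.11 and then 0.73 ± 0.11, and Fas less, at 1.12 ± 0.09 and 0.47 ± 0.10. Trp53inp1, with 85.9 to 111.4 CPM in the 4 mM libraries at 4 h against 64.1, 66.9 and 61 CPM, was at 110.1, 108.3 and 119.1 CPM after washout against 68.2, 74.1 and 44.9 CPM. It had not come down, with a washout effect of 0.85 ± 0.17, and its vehicle library c lay well below the other vehicle libraries. Mgmt had effects of 0.42 ± 0.11 and 0.46 ± 0.12. Without library a or c of the washout vehicle or a of the exposed washout libraries 3 of the list were retained, and without b of that vehicle 9 recovered. The 8 genes called after washout became 4 without vehicle c and 5 without vehicle a or any 1 of the exposed washout libraries. Ccng2, a cyclin linked to arrest, and Ephx1, an epoxide hydrolase, were late, at 0.61 ± 0.15 and 0.29 ± 0.05 after washout.

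Genes of DNA replication moved past their vehicle in direction more than in calls, and genes of DNA repair are given after them. Of 41 replication genes 15 were higher at 4 h (background 19.5%), 21 had a called downward difference (background 7.82%) and 13 recovered (background 15.1%). The median effect of the replication list was 0.12 at 4 h and -0.16 after washout. In 23 of the 41 every exposed washout library lay below every vehicle library (background 15.8%), but only Mcm3 and Mcm5, of the replicative helicase, and Rrm1, of ribonucleotide reductase, were called, at -0.25 ± 0.05, -0.26 ± 0.06 and -0.18 ± 0.05. Without library c of the washout vehicle none was called, and without a or b of it 6 and 7 were. Without library a of the 4 h vehicle 9 were higher at 4 h and 8 recovered. Cdc6, which loads the helicase, had the largest difference at -0.64 ± 0.09, with 63.8 CPM at 4 mM against 48.1 CPM at 4 h and 39.6 against 46.4 CPM after washout. Of 30 genes of homologous recombination and the Fanconi pathway 11 were higher at 4 h (background 19.5%) and 7 recovered (background 15.1%), with Rad51ap1 (-0.81 ± 0.13), Brca2 (-0.73 ± 0.19) and Xrcc3 (-0.62 ± 0.16) leading. Those counts were 5 and 4 without library c of the 4 h vehicle and 7 and 4 with a replicate block, 7 were higher at 4 h without a of that vehicle, and 4 recovered without c of the washout vehicle or b of the exposed washout libraries. Of 29 genes of base excision, mismatch and alkylation repair 8 were higher and 6 lower at 4 h (backgrounds 19.5% and 19.1%), the latter near the share of all genes. In this list 7 recovered (background 15.1%), among them the mismatch gene Msh3 (-0.61 ± 0.14), the glycosylase gene Mbd4 (-0.61 ± 0.15) and, from below, the endonuclease gene Apex2 (0.63 ± 0.12). Mgmt and the thymine glycosylase gene Tdg (-0.38 ± 0.05, then -0.25 ± 0.06) were retained, Mgmt in no fit that left out a washout library and Tdg not without c of the washout vehicle or a of the exposed washout libraries. In this list 5 were higher and 4 recovered with a replicate block or without a of the 4 h vehicle, and 4 recovered without c of it; with the block Apex2 was retained.

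The retained class was unsettled in number. It held 92 genes without library c of the washout vehicle, 178 without a of it, and 112, 128 and 163 without a, b and c of the exposed washout libraries, but 583 where only the 14 libraries were fitted. Of the 271 retained genes in the fit to all libraries, 183 had been higher at 4 h and 88 lower. In 58 (0.437% of those tested) the difference was called towards 0 (partly retained), in 4 (0.0302%) away from 0 (grown), and in 209 (1.58%) it was not called. Ces2e, a carboxylesterase, had the largest washout effect of the named retained genes and had grown: from 4.3, 3.15 and 4.18 CPM in the vehicle to 6.55 to 8.48 CPM at 4 h, and to 24.8, 20.7 and 23.4 CPM after washout against 6.69, 6.86 and 6.3 CPM. All exposed libraries were above all vehicle libraries at both times, and the effect went from 0.98 ± 0.14 to 1.79 ± 0.12 (edgeR adjusted p of the difference 0.00248). The other 3 grown genes, named for their class after it was seen, were Sqor, which oxidises sulfide (0.29, then 0.66), Ecm1, a matrix protein (0.21, then 0.59), and Qsox1, which forms disulfide bonds (0.16, then 0.42). Celf5, an RNA binding protein, had the largest 4 h effect of the named retained genes and was partly retained. Its 5 exposed libraries were at 22.1 to 30.9 CPM against 2.06, 1.7 and 2.14 CPM, and after washout at 6.68, 5.76 and 6.28 CPM against 2.42, 2.26 and 2.05 CPM. The washout effect of 1.47 ± 0.19 was called (edgeR adjusted p = 3.52e-05), as was the difference of -2.27 ± 0.27. Sytl1, of vesicle trafficking, C1s1, a complement protease, and Cdc42bpg, a kinase, kept 1.25 ± 0.15, 1.26 ± 0.23 and 1.12 ± 0.19, and Fam180a 1.45 ± 0.32; the call of Fam180a was lost without library c of the washout vehicle or without a or b of the exposed washout libraries.

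The autophagy and lysosome genes went several ways. Of 36 measured, 19 were higher and 3 lower at 4 h (backgrounds 19.5% and 19.1%). In this list 6 recovered (background 15.1%), a share near that of all genes, and 10 were unresolved (background 21.3%). Another 6 were retained (background 2.04%), and 7 were higher after washout (background 2.31%). The cathepsin genes Ctsd, Ctsl and Ctsb had washout effects of 0.38 ± 0.07, 0.31 ± 0.05 and 0.29 ± 0.05, beside 4 h effects of 0.37 ± 0.07, 0.34 ± 0.05 and 0.24 ± 0.05. The hydrolase gene Glb1 and the autophagosome gene Map1lc3b were retained at 0.27 ± 0.06 and 0.28 ± 0.06, and Lamp2, a lysosomal membrane protein, was called only after washout. None of these named genes had a called difference. Mcoln1, the lysosomal calcium channel, and Atg14, which starts autophagosomes, recovered instead, by -0.68 ± 0.13 and -0.58 ± 0.16. Without library c of the washout vehicle or a of the exposed washout libraries 4 genes of the list were higher after washout.

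Ribosome biogenesis genes were divided between retained and recovered decreases. Of 38 measured, 24 were lower at 4 h (background 19.1%) and 11 were lower after washout (background 1.17%). Of the 38, 9 were retained, 8 recovered and 7 were unresolved (backgrounds for genes lower at 4 h 0.664%, 8.36% and 9.93%). The median effect was -0.36 and then -0.21. Rrp12, a ribosome export factor, was at 77, 63.9 and 81 CPM in the 4 h vehicle, 49.4 to 58 CPM at 4 mM, and 63.9, 66.5 and 59.4 CPM after washout against 77.2, 78.1 and 88.6 CPM. Its groups did not overlap at either time, and the washout effect was -0.36 ± 0.09. Across the list, every exposed washout library lay below every vehicle library in 35 of 38 genes (background 15.8%). Rrs1, Tsr1 and Wdr43, which act in subunit assembly, recovered by 0.75 ± 0.17, 0.68 ± 0.09 and 0.61 ± 0.12. The calls hung on single libraries: without library c of the washout vehicle no gene of the list was called after washout, at a median of -0.18, and 12 recovered, and without a, b or c of the exposed washout libraries 2, 4 and 4 were called, Rrp12 being lost without a or c. Of 78 structural proteins of the cytosolic ribosome 2 were called at 4 h, and none after washout or in the difference, by edgeR or the DESeq2 Wald test or at an unadjusted p under 0.05 (0 of 78), with median effects of 0.05 and 0.06.

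The other genes retained below the vehicle by rule were Ak4, an adenylate kinase of the mitochondrion (-0.80 ± 0.08, then -0.78 ± 0.08), Slc35g1, Pop1, Pdss1, Ccdc137 and Tex30, with washout effects from -0.35 to -0.43. Ak4 was at 15.5 ± 1.38 CPM against 26.8 ± 2.09 CPM at 4 h and at 33.7 ± 3.4 against 57.9 ± 5.99 CPM after washout, so its ratio held while the level in both groups rose. The calls of Slc35g1, Pdss1 and Tex30 were lost without library c of the washout vehicle, those of Pop1, Pdss1 and Tex30 without library a of the exposed washout group, and that of Pop1 also without vehicle a; with a replicate block Pop1 was not called at 4 h (edgeR adjusted p = 0.0705).

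Overshoot was rare and small. Of the 22 overshooting genes, 15 had been lower at 4 h (0.113% of those tested) and 7 higher (0.0528%). Tcp11l2 had the largest reversal: 8.16, 7.23 and 6.5 CPM in the 4 h vehicle, 3.28 to 4.82 CPM at 4 mM, then 11.4, 9.62 and 11.8 CPM after washout against 6.91, 5.44 and 4.09 CPM. The exposed libraries were all below the vehicle at 4 h and all above it after washout, with effects of -0.86 ± 0.17 and 0.99 ± 0.18 and a difference of 1.85 ± 0.25 (edgeR adjusted p = 2.37e-06). Casp12, a caspase of the endoplasmic reticulum, Gcnt3, a glycosyltransferase, Wdr45, of autophagosome formation, Cyp2j6, a cytochrome P450, and Trim2, a ubiquitin ligase, moved the same way with washout effects from 0.33 to 0.70. In the lists, Dnajb4, a heat shock cochaperone, had gone from -0.53 ± 0.08 to 0.35 ± 0.08 and Plat, the tissue plasminogen activator, from -0.22 ± 0.06 to 0.31 ± 0.07. In the other direction were Adamts1, a matrix protease (0.22 ± 0.08, then -0.54 ± 0.09), Hmox1, haem oxygenase (0.22 ± 0.05, then -0.31 ± 0.07), and Hspa5, the main chaperone of the endoplasmic reticulum (0.14 ± 0.05, then -0.20 ± 0.06). Timeless, a replication fork protein, went from 104.9 to 110.3 CPM at 4 mM against 77.5, 84.2 and 81.8 CPM, to 68.6, 66.5 and 64.9 CPM after washout against 74.8, 77.5 and 79.8 CPM. Its groups did not overlap at either time. Mybl2, which encodes B-MYB, and the folate enzyme gene Mthfd1 also crossed, with differences of -0.58 ± 0.10 and -0.29 ± 0.05, and so did Fam57a (-0.63 ± 0.10). Without library a, b or c of the exposed washout group 5, 10 and 11 genes were in the class, and without library c of the washout vehicle 6. Where only the 14 libraries were fitted it held 84. With a replicate block it held 14, of which 12 were shared: Gcnt3, Wdr45 and Hspa5 were then not called at 4 h, and Trim2, Mybl2, Timeless and Mthfd1 were recovered, not called after washout.

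Glycolysis and other targets of HIF1, the oxygen-sensing factor, were lower after washout more than at the end of the exposure. Of 31 measured genes 3 were higher and 6 lower at 4 h (backgrounds 19.5% and 19.1%), the latter a share near that of all genes. After washout 17 were lower (background 1.17%), and 11 had a called downward difference (background 7.82%). The median effect was -0.05 at 4 h, against 0.03 over all tested genes, and -0.31 after washout. Late genes were Slc2a1, the glucose carrier GLUT1, Pfkl and Pfkp, phosphofructokinases, Pgk1, Pkm and Ldha, later enzymes of the pathway, and P4ha1 and P4ha2, which hydroxylate collagen. They are named for their class, after it was seen. The late class held 8 of these 31 genes (background for genes lower after washout 0.219%).

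Slc2a1 was at 57.2, 49.3 and 55 CPM in the 4 h vehicle and 45.1 to 56.2 CPM at 4 mM, and after washout at 77, 72 and 72.4 CPM against 102.6, 122.1 and 94.2 CPM. The 4 h groups overlapped and the washout groups did not. Both groups had risen over time, the vehicle by 0.98 and the exposed cells by 0.55, and the washout effect was -0.53 ± 0.08 (edgeR adjusted p = 0.000333). For Ldha the exposed cells stayed near their level, at 1014 to 1139 CPM at 4 h and 1046, 1005 and 1018 CPM after washout, while the vehicle went from 1234, 1138 and 1148 CPM to 1395, 1575 and 1299 CPM. Over the whole list the median change over time was 0.28 in the vehicle and -0.05 in the exposed cells, and 17 of the 31 genes rose in the vehicle (background 3.33%). Bnip3, a mitophagy receptor, Ankrd37, Pgam1 and Egln1 were retained, with Bnip3 at 77.1, 101 and 56 CPM in the washout vehicle and 52.4, 41.8 and 48.6 CPM after 4 mM. Vegfa, the vascular growth factor, and Ndrg1 went another way: both were higher at 4 h (1.16 ± 0.07 and 0.99 ± 0.11) and recovered, by -1.26 ± 0.11 and -1.05 ± 0.18, while the oxygen sensor gene Egln3 had a difference of -0.79 ± 0.30 that missed the threshold. Library b of the washout vehicle was the highest of its group for Slc2a1, Ldha, Bnip3 and Ankrd37; without it 8 genes of the list were lower after washout, at a median of -0.25, 6 had a called downward difference and 3 were late, the calls of Ldha's difference and of Ankrd37 were lost, and those of Slc2a1 and Bnip3 were not. Without b of the exposed washout libraries 11 were lower and 4 were late. With a replicate block Egln1 was not called at 4 h (edgeR adjusted p = 0.147), and Pkm was not late.

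**Figure D3:**
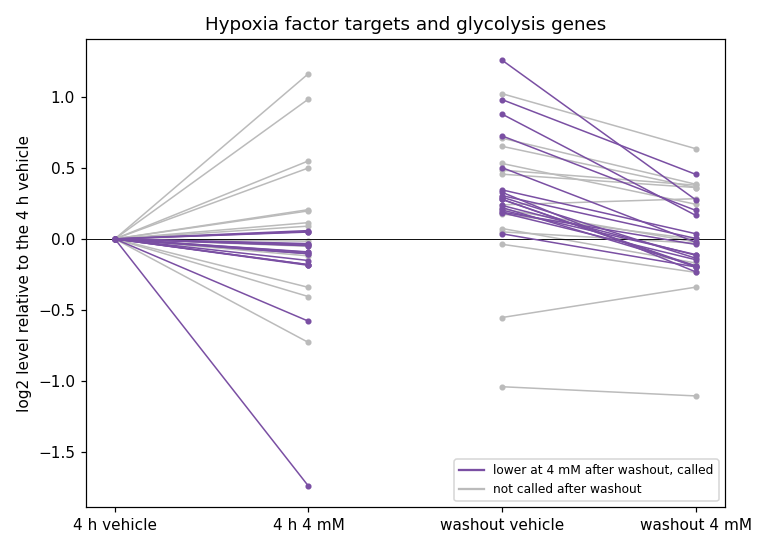
Log2 level relative to the 4 h vehicle of each of the 31 measured genes of the HIF1 and glycolysis list in the 4 groups, with lines joining vehicle and 4 mM of the same time, and violet for the 17 genes called lower after washout. The washout lines mostly start above 0 in the vehicle and slope down to 4 mM, with 2 genes, Vegfa and Ndrg1, high at 4 h.

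Outside the lists the late genes by rule were Lbp, a lipopolysaccharide binding protein (1.68 ± 0.31 after washout), Esr1, the oestrogen receptor (0.99 ± 0.15), Abca9, a lipid transporter (0.88 ± 0.17), and Serpinb9b, a protease inhibitor (0.84 ± 0.16), all higher. Esr1 was at 6.7 ± 0.199 CPM after washout of 4 mM and 3.38 ± 0.338 CPM in its vehicle, beside 3.21 ± 0.357 and 2.95 ± 0.334 CPM at 4 h. Apoo, Tarbp1, Ifrd2 and Noa1 were lower, with washout effects between -0.28 and -0.44. Esr1, Abca9 and Noa1 kept the call of their difference in all 22 alternatives, while Apoo lost it in 10, Ifrd2 in 9, Tarbp1 in 6, Serpinb9b in 3 and Lbp in 2. Leaving out library c of the washout vehicle cost Lbp, Serpinb9b, Apoo, Tarbp1 and Ifrd2 the call, and a replicate block cost Serpinb9b, Apoo and Ifrd2 the call. With the block Tarbp1 and Noa1 were no longer late either. Tfrc, the transferrin receptor, which carries iron into cells, was late with the larger effect of -0.55 ± 0.07, at 181.5 CPM against 265.9 CPM after washout.

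**Figure D4:**
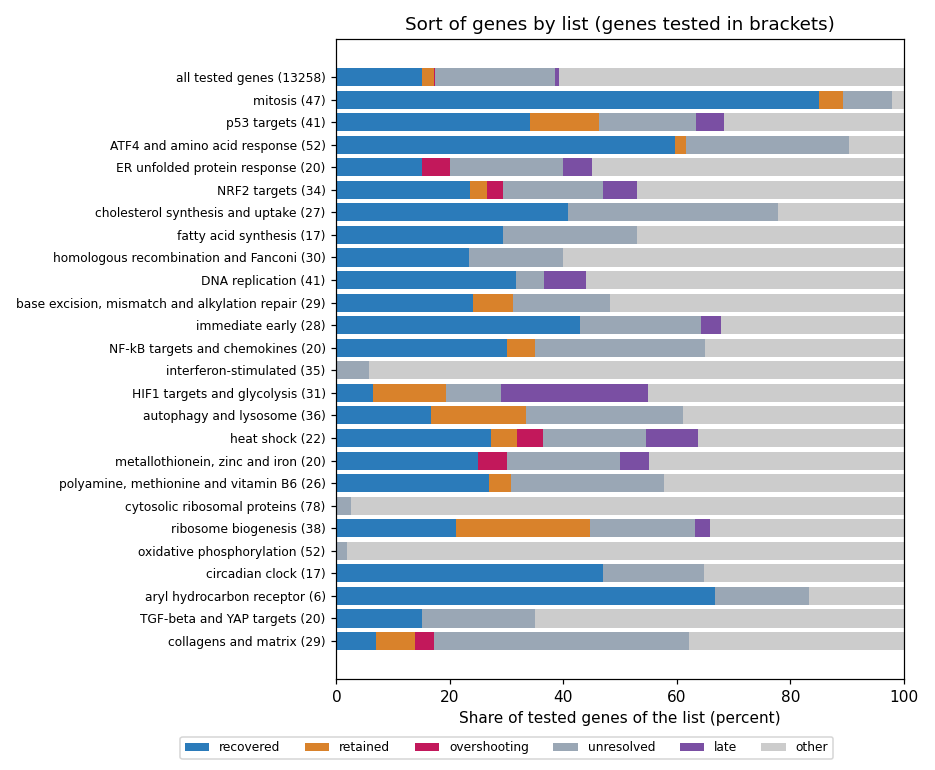
Share of the tested genes of each of the 25 lists, and of all 13258, in each class, in percent. Mitosis and the ATF4 response are mostly recovered, ribosome biogenesis holds 9 retained genes of 38, and the HIF1 and glycolysis list holds 8 late genes of 31.

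Recovery from 4 mM was set against recovery from 6 and from 10 mM (12 libraries each). The contrast of a higher dose with 4 mM was the change over time at that dose minus the change over time at 4 mM, in which the vehicles cancel; the doses share their vehicle libraries, and both contrasts share the 4 mM libraries. Recovery from 6 mM differed for 327 genes (2.47%), 146 upwards and 181 downwards, and recovery from 10 mM for 4684 (35.3%), 2290 upwards and 2394 downwards. Among p53 targets 12 of 41 had a lower contrast from 6 mM (background 1.37%) and 15 from 10 mM (background 18.1%). For Mdm2 the drop was greater by 1.16 from 6 mM (log2 contrast -1.16, edgeR adjusted p = 1.03e-11) and by 1.90 from 10 mM. Median washout effects over the list were 0.11, 0.18 and 0.16 after 4, 6 and 10 mM, beside 4 h medians of 0.31, 0.51 and 0.43. Cdkn1a gave contrasts of -0.35 and -0.47, and Trp53inp1, which had not come down from 4 mM, gave -1.13 and -1.20.

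Mitosis and replication had higher contrasts from 6 mM: 10 of 47 and 13 of 41 genes were called upwards (background 1.1%) and none downwards. For the mitosis list this was a larger rise, from a 4 h median of -1.07 at 6 mM to -0.04. For the replication list, whose median had fallen from 0.12 to -0.16 at 4 mM, it was a smaller fall, with medians of 0.00 and -0.05 at 6 mM. Pif1 came up by a further 1.04 from 6 mM (edgeR adjusted p = 0.000146). From 10 mM the mitosis list had 7 higher and 23 lower contrasts (backgrounds 17.3% and 18.1%), the first a share not above that of all genes. Its 4 h median was -0.52 there and -0.91 at 4 mM. Plk1 gave -1.24 (edgeR adjusted p = 3.62e-11). In the ATF4 list 1 of 52 genes was called in the contrast from 6 mM (background 2.47%). From 10 mM 10 were up and 13 down (backgrounds 17.3% and 18.1%), the first a share near that of all genes. Ribosome biogenesis had 28 of 38 genes with a lower contrast from 10 mM (background 18.1%). None was called from 6 mM by edgeR (6 at an unadjusted p under 0.05). The list's 4 h medians were -0.36, -0.24 and 0.20 at 4, 6 and 10 mM, so at 10 mM it started above the vehicle. Its washout medians were -0.21, -0.17 and -0.13. The HIF1 and glycolysis list had washout medians of -0.37 after 6 mM and -0.47 after 10 mM, against the same vehicle libraries. Celf5 had a contrast of 2.76 from 10 mM (edgeR adjusted p = 4.47e-11), where it had been up by less at 4 h, 1.45 against 3.74 at 4 mM, and stood at 1.93 after washout. Its contrast from 6 mM was 0.33 (edgeR adjusted p = 0.424).

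**Figure D5:**
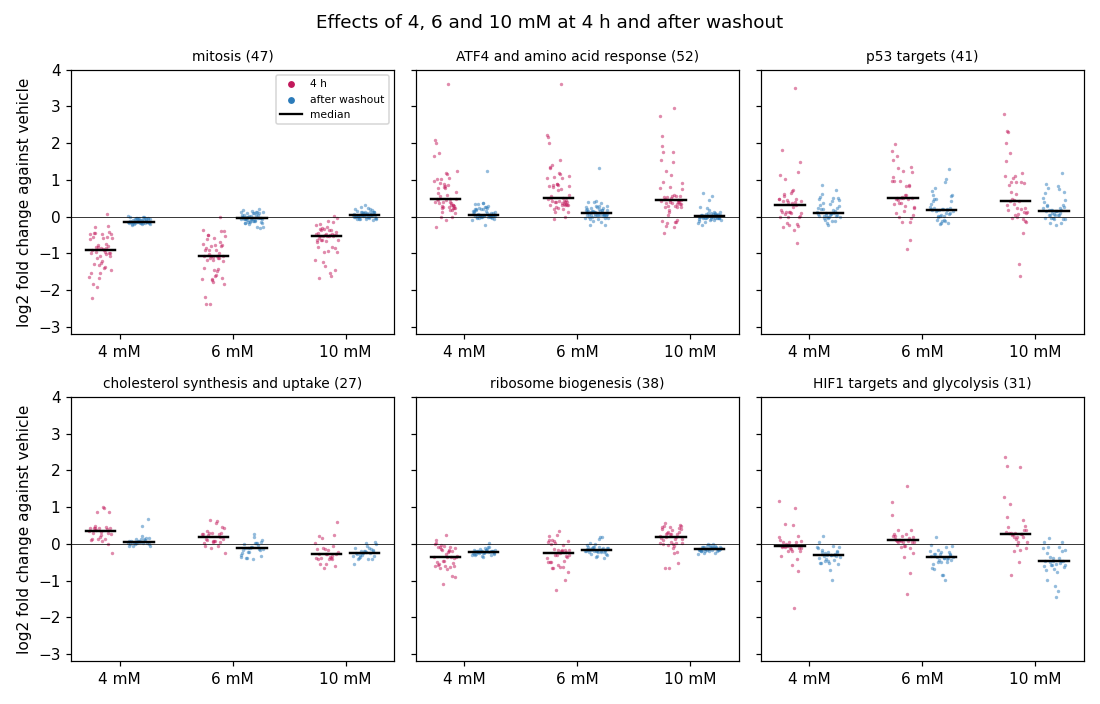
Effect (log2) of 4, 6 and 10 mM on each gene of 6 lists, at 4 h and after washout, each against the vehicle of its time, with points for genes and a line at the median; 2 points fall outside the axes. The mitosis medians rise from -0.91 at 4 h to -0.14 after washout of 4 mM, and those of the HIF1 and glycolysis list lie below 0 after washout of each dose.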

How the data were processed

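The authors deposited expected counts per gene for 32 libraries, which they had estimated from the reads. Per the labels' protocols, RNA was extracted with Qiazol, poly-A selected, made into stranded libraries with 15 PCR cycles and sequenced as pairs of 75 bp. Aligner, quantifier and genome build are not given in the sources used here. Of 49585 identifiers 97.2% matched a symbol in GENCODE M21. The counts were rounded before testing, since 74.3% of the values above 0 were whole within 1e-6. Totals of the 14 libraries ran from 10677839 to 17086721. No replicate pair was a copy (chi-square per degree of freedom at least 2.1).

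Computed here with edgeR 4.0.16 (R 4.3.3): filter on low counts (minimum 10, minimum total 15), TMM scaling, and 1 coefficient per group fitted robustly to all 32 libraries (22 residual degrees of freedom, biological coefficient of variation 0.0847). Contrasts were tested with the quasi-likelihood test and Benjamini-Hochberg adjustment over 13258 genes, at 0.05. Each SE was taken from its log2 fold change divided by the root of the test statistic. The computation was tested on simulated data. Intervals were not computed.

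Named genes were the leading 2 to 4 of each list by size of the difference and, outside the lists, the leading ones of each class with a called difference (retained: called washout effect) and at least 5 CPM in a group. List genes named for being retained or late, and Mdm2, Cdkn1a, Trp53inp1, Slc2a1, Ldha and Rrp12, were chosen after their values were seen. The groups, the 25 lists and the tests were chosen with earlier results of these data known. Alternatives were DESeq2 1.42.0, its size factors, no filter, no robust estimation, other sets of libraries in the fit, a replicate block, other thresholds and sorts, and each library left out. Counts per list and washout effects of retained genes under these alternatives were added after seeing the data. Pairing by replicate letter was checked from the data, since no label ties the letters to a shared batch. Deviations of same-letter libraries correlated at 0.15, 0.11 and 0.20 between vehicle and 4 mM at 4 h, which counts as paired. After washout they correlated at -0.039, -0.0049 and -0.093, which does not. Of all 18 same-letter pairs, within and across times, 6 exceeded 0.1. The highest, 0.34, was for c between the 4 h vehicle and the washout vehicle. The block is therefore given as an alternative, beside the results it changes.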

Additional observations from a re-analysis of the deposited data

Results flagged for a closer look

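Among 62 sets of values by gene and group examined in the 5 libraries of 4 mM at 4 h, 4 held a library that stood far from the rest, and chance gives about 1 in 20. Sapcd2 was at 3.85 CPM in library e, below the 5.24 to 5.73 CPM of the others. Ifrd2 was at 60.5 CPM in library a, above 57.1 to 57.9 CPM. Ifit1, an interferon-induced gene, was at 15.5 CPM in library a and at 2.55 to 2.86 CPM in the others. Egr1 was at 0.608 CPM in library c and at 1.36 to 1.42 CPM in the others.

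For 15 overshooting genes, 11 named outside the lists and 4 in them, the 4 h effect, the washout effect of opposite sign and the difference between them were all called. The difference of effects (log2) was upwards for Tcp11l2 (1.85), Gcnt3 (1.2), Casp12 (1.06), Dnajb4 (0.88), Wdr45 (0.696), Trim2 (0.666), Cyp2j6 (0.646) and Plat (0.528). It was downwards for Adamts1 (-0.759), Fam57a (-0.635), Timeless (-0.629), Mybl2 (-0.578), Hmox1 (-0.531), Hspa5 (-0.345) and Mthfd1 (-0.288).

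Recovery from 6 mM differed from recovery from 4 mM for 327 genes by edgeR's test of that contrast, and 6 of them were among the 62 genes examined here. The contrast (log2) was higher for Pif1 (1.04) and Adamts1 (0.522) and lower for Dact1 (-1.37), Mdm2 (-1.16), Trp53inp1 (-1.13) and Cdkn1a (-0.352).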

How the results depend on the processing

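For 153 genes, those named by rule and the leading 4 of each list, the difference (for retained genes the washout effect) was recomputed under 22 alternatives, and none reversed; other genes in the text were not followed in this way. Of these values, 3190 kept their side of the threshold, 145 lost their call and 31 gained one. Counts under another choice, against 2001 recovered, 271 retained, 22 overshooting, 2819 unresolved and 78 late genes, were as follows. Without the filter on low counts, 687 genes had a lower difference, 164 were retained and 12 overshot. Fitting only the 14 libraries gave 583 retained, 84 overshooting and 168 late, and leaving out 6 mM washout c and 10 mM washout a gave 539, 62 and 158. At an adjusted p of 0.01, 782 and 551 genes had a higher and a lower difference, and 1225 recovered, 91 were retained, 3 overshot and 36 were late. Requiring 1.5-fold at 4 h left 798 recovered, 106 retained, 2 overshooting and 590 unresolved. Sorting the genes of at least 2-fold by the share of the effect left gave 346, 87, 48 and 122 for the same classes. With a replicate block, in which libraries d and e of 4 mM at 4 h carry no information, 14 genes overshot, 1666 recovered and 4361 were called at 4 h. Leaving out single libraries gave 92 to 275 retained, 5 to 24 overshooting and 38 to 81 late genes, the lowest retained and late counts without washout vehicle c. DESeq2 size factors moved the median effects by under 0.01, and the DESeq2 Wald test shared 1849 of the recovered genes, 92.4% of the main list and 95.5% of its own. The causes were not tested. Calls were lost in 9 or more alternatives for genes of a few CPM (Gdf15, Steap3, Ahrr, Mutyh) and for better measured ones (Ifrd2, Apoo).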

Other observations

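Counts here stand against backgrounds of 19.5% higher and 19.1% lower at 4 h and 15.1% recovered. Oxidative stress genes went several ways. Of 34 NRF2 targets 10 were higher and 6 lower at 4 h, the latter near the background, and 8 recovered (5 without 4 h vehicle a), among them Gclc, the catalytic subunit of glutathione synthesis (difference -0.55 ± 0.14), and Osgin1 (0.51 ± 0.12). Gclm, the partner subunit, was retained below the vehicle (-0.18 ± 0.06, then -0.29 ± 0.07; not without vehicle a or c or exposed a or b after washout), and Aox1, an aldehyde oxidase, was late (0.53 ± 0.12 after washout), a call lost without washout vehicle c. Of 20 genes of the unfolded protein response 5 were higher and 3 lower at 4 h, and 3 recovered, shares near those of all genes; 3 were higher and 1 recovered with a replicate block or without 4 h vehicle c, and 1 recovered without washout vehicle b. The chaperone gene Calr recovered by -0.33 ± 0.07, but with the block it was not called at 4 h (edgeR adjusted p = 0.055). In the heat shock list of 22, 4 genes had been raised and 8 lowered at 4 h, 6 recovered and 4 were lower after washout, including Hsp90aa1 (-0.25 ± 0.06) and Hsph1 (-0.27 ± 0.05). Without washout vehicle c or exposed a, 1 was lower after washout, and 2 without exposed b or c. Of 20 metal genes 5 were higher and 5 lower at 4 h, and 5 recovered, such as Alas1, the first enzyme of haem synthesis (-0.69 ± 0.10); 2 recovered with a replicate block, without 4 h vehicle a or without exposed washout a.

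Hydrazine binds vitamin B6, and of 26 polyamine, methionine and B6 genes 8 were higher (5 without 4 h vehicle b) and 7 lower at 4 h, and 7 recovered. Both subunits of the enzyme that makes S-adenosylmethionine recovered from below, Mat2a by 0.64 ± 0.09 and Mat2b by 0.72 ± 0.08, and the B6-dependent aminotransferase gene Gpt2 from above by -0.82 ± 0.12. Of 6 aryl hydrocarbon receptor genes 4 recovered (2 without washout vehicle c or exposed washout c), among them Cyp1b1 (0.62 ± 0.12) and Tiparp (-0.52 ± 0.13). Of 20 TGF-beta and YAP targets 6 were higher and 1 lower at 4 h and 3 recovered, the last a share near that of all genes, with Ccn1 at -0.82 ± 0.17. Of 29 collagen and matrix genes 13 were higher and 5 lower at 4 h, and 13 were unresolved (background 21.3%). Col6a1 and Col6a2 were retained at 0.30 ± 0.08 and 0.32 ± 0.08. With a replicate block Col6a1 was not called at 4 h, and neither was retained without 4 h vehicle c, washout vehicle c or any 1 of the exposed washout libraries. Of 52 genes of oxidative phosphorylation 1 was called at 4 h by edgeR and 0 after washout, where 3 had an unadjusted p under 0.05 and the DESeq2 Wald test called 1. Of 35 interferon-stimulated genes 2 were called at 4 h, although the list's medians were -0.53 at 4 h and 0.27 after washout. Its vehicle libraries differed widely: Ifit1 was at 7.47, 26.4 and 7.9 CPM at 4 h and at 20.8, 10.1 and 4.99 CPM after washout.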
